A study of Mus musculus with 15 samples.

Results

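The enzymes that write, copy and remove DNA methylation, together with the core of Polycomb repressive complex 2 (PRC2), were followed in RNA sequencing of mouse intestinal organoids. Organoids are self-renewing epithelial cultures grown from intestinal crypts. The set holds 10 genes by name, out of 43629 genes in the count table: Dnmt1, Uhrf1, Dnmt3a, Dnmt3b, Tet1, Tet2, Tet3, Ezh2, Eed and Suz12. All 10 were found in the count table and in the table of FPKM, fragments scaled for transcript length and library total. The study asked how organoids with a Ptprk-Rspo3 rearrangement differ from organoids without Apc and from wild-type organoids.

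All organoids had the strain label C57B6/129, and the labels give no age. The 5 WT libraries were grown in ENR medium, which contains EGF, Noggin and RSPO1. Of these, 4 (lines 1, 2, 5 and 6) carried APC flox/flox, and 1 came from a culture labelled Dox naive, which carries the editing transgenes without doxycycline induction. The 4 Apc libraries came from Apc delta/delta cultures of the same 4 line numbers, grown in EN medium without RSPO1. The labels do not say how the floxed allele was recombined. The 4 P-Rspo3 libraries (15d, 4d, M and F) came from cultures in which doxycycline-inducible Cas9 had joined Ptprk to Rspo3 by inversion, also grown in EN, and these cultures were polyclonal. Genotype and medium therefore cannot be told apart in a comparison with WT, whereas Apc and P-Rspo3 shared EN medium. The lines differed as well. The Apc libraries and 4 of the 5 WT libraries came from the floxed lines. The P-Rspo3 and naive libraries came from cultures with the editing transgenes. Genotype and line therefore cannot be told apart between Apc and P-Rspo3 or, for the most part, between P-Rspo3 and WT. For 2 more libraries the labels disagree with themselves, and neither was given a group.

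In mammals, DNA methylation sits mainly on the cytosine of CpG dinucleotides. DNMT3A and DNMT3B place it on unmethylated DNA, and DNMT1 copies it onto the new strand after replication, guided by UHRF1, which binds hemimethylated CpG. The TET dioxygenases oxidize methylcytosine on the way to its removal. PRC2, built around EZH2, EED and SUZ12, methylates lysine 27 of histone H3, a mark of silent genes that Polycomb repressive complex 1 (PRC1) can read. In the intestine, crypt progenitors divide rapidly and villus enterocytes do not, and Dnmt1, Uhrf1 and Ezh2 are known as genes of dividing cells.

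The 13 grouped libraries held 28902729 to 35528495 counts each. As a check of the labels, Rspo3 counts were 539 to 1079 in P-Rspo3, 0 to 1 in WT and 7 to 57 in Apc. Ptprk had 2012, 1939 and 1517 counts in P-Rspo3 replicates 15d, M and F, and 2958 to 4996 in WT. Replicate 4d, with the fewest Rspo3 counts of its group (539), had 3107 counts of Ptprk, within the WT range. The 4d library therefore lacks the drop in Ptprk seen in the rest of its group. Counts over the whole Apc gene were higher in the Apc libraries (9265 to 10953, against 4046 to 6810 in WT), so a count over the whole gene gives no check of a deletion within it. The epithelial markers were present in every group, with a summed FPKM over 7 genes of 1957 to 2376 in WT, 1896 to 2370 in Apc and 1926 to 2360 in P-Rspo3; 2 of the 7 were higher and 4 lower in Apc than in WT. All 7 enterocyte markers were lower in Apc than in WT, and their summed FPKM was 25.2 to 53.9 in Apc, 3207 to 9360 in WT and 2224 to 5168 in P-Rspo3. Of the 7 stromal markers, Col1a2 and Col3a1 had at most 3 counts in every library of every group, but the sum was 16.7 to 253 in Apc and 2.30 to 4.96 in WT, and Vim was higher in Apc (log2 fold change 4.89). The other tested ones entered through 1 group alone, Pdgfra through Apc (at most 73 counts, and 4 in WT) and Pdgfrb through WT (at most 39, and 8 in Apc). Of the 7 immune and endothelial markers, Ptprc, Cd3e and Cd79a had at most 3 counts in every Apc library. Cd68 was higher in Apc (log2 fold change 2.55) and Itgam lower (-2.54). Pecam1 had at most 10 counts in Apc and 36 in WT, and reached an FPKM of 0.1 in 1 Apc and 5 WT libraries. It thus entered the test through WT, the group where it was high, and no fold is given. Cdh5, which entered the test through Apc alone, was at least 88.3-fold higher there than in WT. This bound was computed on library totals, without TMM scaling, against a floor of 3 counts per library. The part of these shifts in the results on the enzymes was not tested. Fewer cells of a type and less RNA per cell cannot be told apart in such bulk samples.

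In Apc organoids, 7 of the 10 genes were higher than in WT, 2 were lower and 1 (Tet2) did not pass the test. Of these 7, Tet1 entered the test only through Apc, the group where it was high, as described below. The test was edgeR's quasi-likelihood test on counts after TMM scaling, and a gene passes at a Benjamini-Hochberg adjusted p under 0.05 over all genes tested. The labels do not say that libraries of a group are separate cultures of separate mice, so p-values measure only the spread between these libraries. The genes that rose were the maintenance pair Dnmt1 and Uhrf1, the de novo enzyme Dnmt3b, the oxidase Tet1 and all 3 PRC2 core genes. Dnmt3a and Tet3 were lower under TMM and under DESeq2's size factors, and did not pass when libraries were scaled to total counts or compared by FPKM. Among all 16749 genes tested, 30.0% were higher in Apc and 29.0% were lower. No member passed the study's further threshold of an absolute log2 fold change above 1, which 26.3% of all genes passed. That count of 0 depended on the scaling: Dnmt1 and Tet1 lay above 1 and passed with total counts (1.04 and 1.15) and on log2(FPKM + 0.1) (1.03 and 1.07), as 27.9% and 25.8% of all genes did, and Dnmt1 alone on log2(FPKM + 1) (1.003, with 15.2% of all genes). The log2 fold changes of the 10 members ran from -0.37 to 0.86 with a median of 0.39, beside a median of 0.00058 over all genes. The ranges of the 2 groups did not overlap for 9 of the 10 members, nor for 51.9% of all genes tested.

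**Figure D1:**
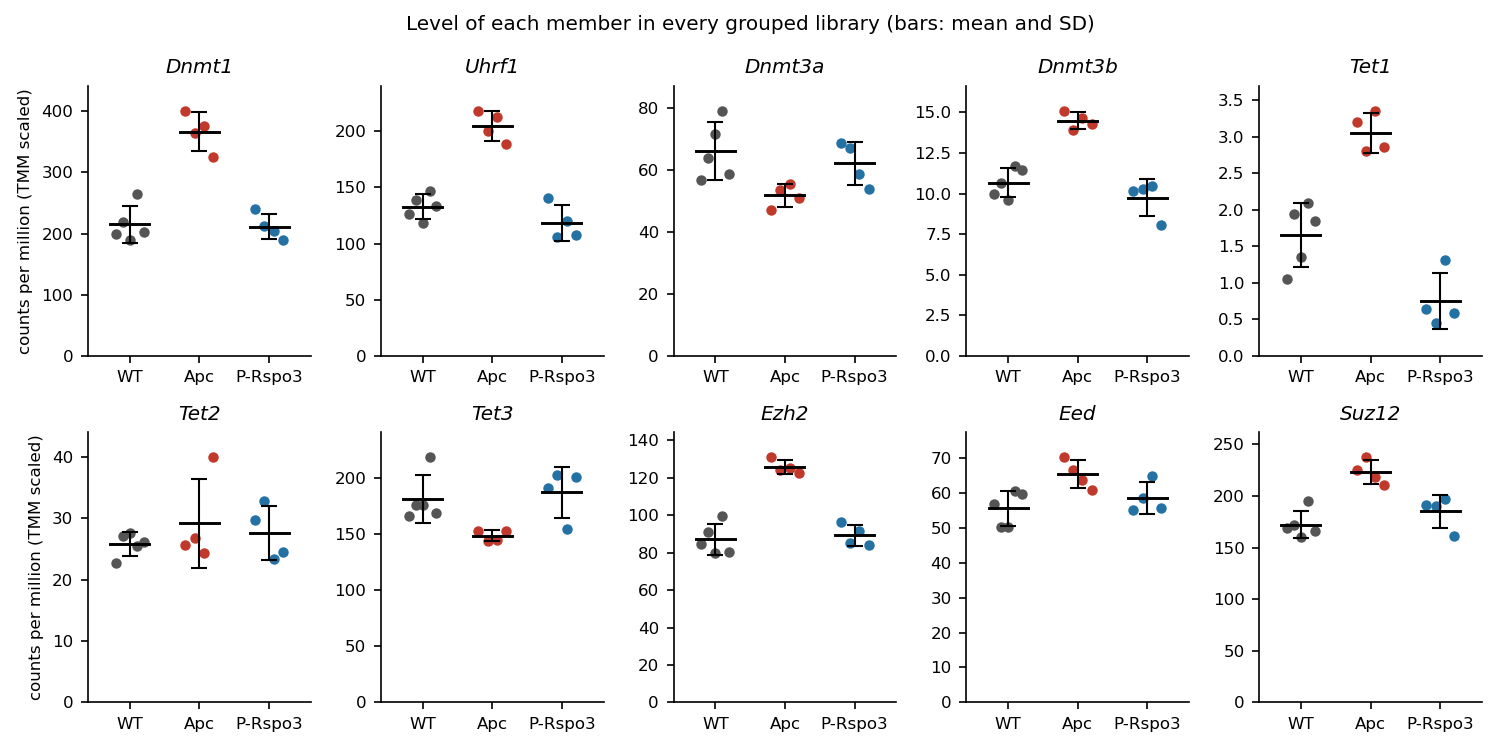
TMM-scaled CPM (y axis, from 0) of the 10 genes in the 5 WT, 4 Apc and 4 P-Rspo3 libraries, 1 point per library, with lines for the mean and bars for the SD. Dnmt1, Uhrf1, Dnmt3b, Tet1, Ezh2, Eed and Suz12 sit higher in Apc than in any WT library, and Dnmt3a and Tet3 sit lower on this scale but did not pass under total count or FPKM scaling.

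Dnmt1 encodes the methyltransferase that copies methylation through cell division (ENSMUSG00000004099, GRCm38 chromosome 9, 20907209 to 20959888, minus strand). In CPM, counts scaled to the library total and by TMM, it had 401, 364, 376 and 325 in Apc replicates 1, 2, 5 and 6. It had 199, 219, 190 and 265 in WT replicates 1, 2, 5 and 6 and 202 in the naive library, so every Apc library lay above every WT library. The fitted log2 fold change was 0.75 ± 0.10 (SE; edgeR adjusted p = 8.57e-05). Within lines, the log2 difference between the Apc and WT libraries was 0.29 to 1.01, higher in 4 of 4 lines.

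Uhrf1, whose product brings DNMT1 to newly copied DNA (ENSMUSG00000001228, chromosome 17, 56303321 to 56323486, plus strand), had 219, 200, 212 and 189 CPM in Apc replicates 1, 2, 5 and 6. The WT libraries had 127, 139, 119 and 147 in the same lines and 134 in the naive library. The groups did not overlap, and the log2 fold change was 0.61 ± 0.07 (SE; edgeR adjusted p = 3.69e-05). This was the smallest adjusted p among the 10 genes.

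Of the de novo enzymes, Dnmt3b (ENSMUSG00000027478, chromosome 2, 153649450 to 153687730, plus strand) had 15.1, 13.9, 14.7 and 14.3 CPM in Apc replicates 1, 2, 5 and 6. It had 9.96, 10.7, 9.60 and 11.7 in the WT libraries of these lines and 11.4 in the naive library, and the groups did not overlap. The log2 fold change was 0.42 ± 0.10 (SE; edgeR adjusted p = 0.00302). Dnmt3a (ENSMUSG00000020661, chromosome 12, 3806007 to 3914443, plus strand) went the other way on this scale. It had 47.1, 53.7, 55.5 and 51.1 CPM in Apc against 56.9, 64.1, 71.8, 79.2 and 58.9 in WT replicates 1, 2, 5, 6 and naive, and again no Apc library reached the lowest WT library. The log2 fold change of Dnmt3a was -0.37 ± 0.10 (SE; edgeR adjusted p = 0.00851) with TMM, and -0.08 with total count scaling, where it did not pass (edgeR adjusted p = 0.538).

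The TET genes did not move as 1 block. Tet1 (ENSMUSG00000047146, chromosome 10, 62804570 to 62908996, minus strand) is known from embryonic stem cells and was the least expressed member. It had 125, 98, 127 and 118 raw counts in Apc replicates 1, 2, 5 and 6, and 33, 53, 36, 71 and 52 in WT replicates 1, 2, 5, 6 and naive. On the TMM scale these were 2.80 to 3.36 CPM in Apc and 1.06 to 2.10 in WT, without overlap, with a log2 fold change of 0.86 ± 0.22 (SE; edgeR adjusted p = 0.00554). Tet1 reached the FPKM minimum of 0.1 in 4 of 4 Apc libraries and in 3 of 5 WT libraries, so it entered the test through the group where it was high.

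Tet2 (ENSMUSG00000040943, chromosome 3, 133463679 to 133545139, minus strand), an oxidase that lacks the CXXC domain of its relatives, had 25.7, 26.8, 24.3 and 39.98 CPM in Apc replicates 1, 2, 5 and 6. WT had 22.6 to 27.6, so 3 of the 4 Apc libraries lay within the WT range and replicate 6 stood above it. The log2 fold change was 0.16 ± 0.14 (SE; edgeR adjusted p = 0.353), and -0.03 without Apc replicate 6. With total count scaling Tet2 passed, at 0.46 (edgeR adjusted p = 0.0175). Tet3 (ENSMUSG00000034832, chromosome 6, 83362373 to 83459084, minus strand), the most expressed of the family here, had 144 to 153 CPM in Apc and 166 to 219 in WT, without overlap. Its log2 fold change was -0.30 ± 0.08 (SE; edgeR adjusted p = 0.00797) with TMM, -0.01 with total count scaling (edgeR adjusted p = 0.918) and 0.02 on log2(FPKM + 0.1) (limma adjusted p = 0.905).

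The 3 PRC2 core genes rose together. Ezh2, the catalytic subunit (ENSMUSG00000029687, chromosome 6, 47530139 to 47595341, minus strand), had 131, 124, 125 and 123 CPM in Apc replicates 1, 2, 5 and 6. WT had 84.7, 90.8, 79.7, 99.7 and 80.5 in replicates 1, 2, 5, 6 and naive, all below the lowest Apc library. The log2 fold change was 0.51 ± 0.07 (SE; edgeR adjusted p = 9.21e-05). Suz12, which holds the complex together (ENSMUSG00000017548, chromosome 11, 79993106 to 80034123, plus strand), had 225, 238, 219 and 211 in Apc and 160 to 195 in WT. Its log2 fold change was 0.35 ± 0.07 (SE; edgeR adjusted p = 0.00110).

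Eed, the subunit that binds the finished histone mark (ENSMUSG00000030619, chromosome 7, 89954654 to 89980983, minus strand), had the smallest of the rises that passed. Apc had 60.8 to 70.2 CPM and WT 50.3 to 60.6, so the groups all but touched. The log2 fold change was 0.21 ± 0.08 (SE; edgeR adjusted p = 0.0346). This call was lost in 7 of 21 alternatives. The edgeR adjusted p was 0.0997 without Apc replicate 1, 0.0815 without Apc replicate 2, 0.0533 without Apc replicate 5, 0.0786 without WT replicate 2 and 0.0764 without WT replicate 5. It was 0.0645 without the filter on low genes. When Apc and WT libraries of the same line were paired through a replicate block, it was 0.0554.

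Genes of dividing cells rose in Apc too, beside 7 members that were higher and 2 that were lower. All 16 genes of a list for dividing cells rose in Apc, where 30.0% of all genes tested were higher. Their median log2 fold change was 0.73. E2f1, a transcription factor of S-phase entry, rose by 0.99 ± 0.09 (SE; edgeR adjusted p = 3.33e-06), and the replicative helicase genes Mcm2 and Mcm4 by 1.01 and 1.04. The mean log2 CPM over the list was 7.39 to 7.65 in Apc, 6.61 to 6.99 in WT and 6.60 to 6.92 in P-Rspo3. In P-Rspo3 minus WT 0 of the 16 passed. Of all genes, 0.00625% were higher and 0% lower there, so a count of 0 is also what the background gives. The part of cell division in the rises of Dnmt1, Uhrf1, Ezh2 and Suz12 was not tested.

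The promoters of members were read for short words of the E2F type, since E2F factors act at genes of dividing cells. From RefSeq promoter windows of GRCm38.p6, which run from 250 bases before to 50 bases after a start, all 10 members had at least 1 window (15 in all). The words TTTCCCGC, TTTCGCGC, TTTGCCGC and TTTGGCGC were searched on both strands. At least 1 was found in 4 of the 10 members, in 5 of 14 genes of the dividing list that have a window, and in 2.26% of all 32851 windows (2.61% of 27025 genes). The members were Dnmt1, Uhrf1, Suz12 and Ezh2, all of them higher in Apc, whereas Dnmt3b, Tet1 and Eed, which also rose, and Dnmt3a, Tet2 and Tet3 held none of these words in these windows. Each of these words contains a CpG. The most CpG-rich windows of the members hold a median of 32 CpG, against 8 over all genes with a window. The shares over all windows and genes are therefore not a like background, and an excess of matches was not tested. A match is a description of the letters and no evidence of binding. The stretches below hold the first match of each, in capitals, 5′ to 3′ on the strand of the gene. They lie at chr9:20952724-20952873 (minus strand) for Dnmt1, chr17:56304063-56304212 (plus) for Uhrf1, chr11:79992856-79993005 (plus) for Suz12 and chr6:47595020-47595169 (minus) for Ezh2.
Dnmt1: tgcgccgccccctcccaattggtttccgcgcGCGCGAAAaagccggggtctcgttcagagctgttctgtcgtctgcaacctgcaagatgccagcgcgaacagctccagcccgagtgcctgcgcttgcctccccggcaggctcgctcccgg
Uhrf1: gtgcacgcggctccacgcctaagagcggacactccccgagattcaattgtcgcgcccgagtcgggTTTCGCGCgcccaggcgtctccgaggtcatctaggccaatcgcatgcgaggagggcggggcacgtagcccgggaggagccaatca
Suz12: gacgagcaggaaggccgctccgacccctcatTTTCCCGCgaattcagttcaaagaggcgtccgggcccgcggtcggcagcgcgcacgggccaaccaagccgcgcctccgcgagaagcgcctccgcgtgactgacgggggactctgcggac
Ezh2: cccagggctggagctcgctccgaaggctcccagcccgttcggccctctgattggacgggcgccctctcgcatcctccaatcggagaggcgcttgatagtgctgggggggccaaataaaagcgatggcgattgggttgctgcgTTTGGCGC

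Positions count from the start of the window that held the match. Dnmt1 had windows from 20959839, 20952930 and 20952574 on chromosome 9 (minus strand), and only the last, furthest into the gene, held matches. Uhrf1 had windows from 56303087 and 56304063 on chromosome 17 (plus strand), and only the latter held a match. Both printed stretches thus lie downstream of another start of the gene. In Dnmt1 the matched word began 219 bases before its start. It reads GCGCGAAA there, the reverse complement of TTTCGCGC. In Uhrf1 the word began 185 bases before the start. In Suz12 it began 219 bases before the start, and in Ezh2 at the fourth base of the transcript. Dnmt1 had a second match 34 bases into the transcript, outside the printed stretch. The most CpG-rich window of each member held 17 to 57 CpG in 300 bases, with a median of 32, beside a median of 8 over all genes with a window.

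Total counts and TMM place the zero of these differences differently. With total count scaling, the median over all genes in Apc minus WT moved to 0.29 on the log2 scale, and on log2(FPKM + 0.1) to 0.28. Against the median gene of its own scale, Dnmt3a was at -0.37 with TMM and -0.37 with total counts, and Tet3 was at -0.30 and -0.31. With total counts 8 members were higher and 0 lower, and with FPKM in limma 7 were higher and 0 lower. Of all genes tested, 45.1% were then higher and 19.7% lower with total counts, 43.0% and 19.5% on log2(FPKM + 0.1), and 43.0% and 19.2% on log2(FPKM + 1). Dnmt1, Uhrf1, Dnmt3b, Tet1, Ezh2 and Suz12 passed as higher in all 21 alternatives, though Tet1 entered the main fit only through Apc, where it was high. Of all genes called, 50.8% were higher with TMM and 69.6% with total counts.

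**Figure D2:**
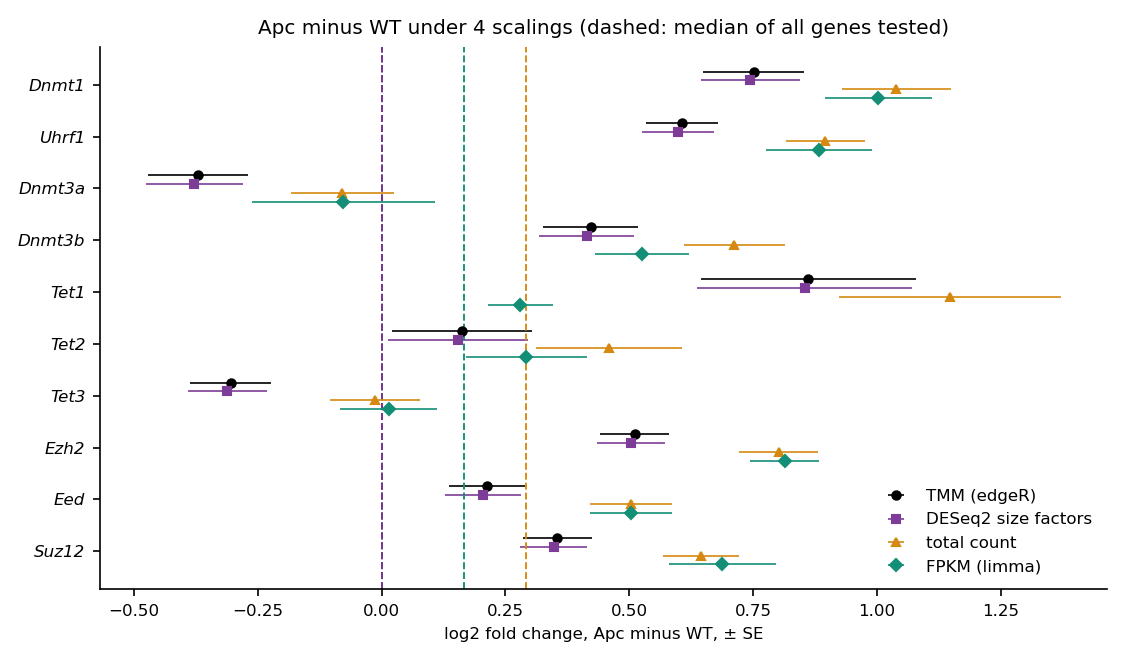
log2 fold change in Apc minus WT (x axis, bars SE) of the 10 genes under 4 scalings, with dashed lines at the median of all genes tested under each (0.00058 with TMM, 0 with DESeq2 size factors, 0.29 with total counts, 0.17 on log2(FPKM + 1)). Dnmt3a and Tet3 lie below the dashed line of their own scale throughout, but near 0 with total counts and FPKM.

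Counts of a pair of genes in 1 library can be compared without any scaling between libraries. The 4 ratios given here were chosen after the values of the genes had been seen. In each pair, Apc and WT were already known not to overlap and to differ in opposite directions. Full separation against WT, and with it the smallest p, followed from that choice, so the p-values are a description. The ratio of Dnmt3b to Dnmt3a counts was 0.321, 0.259, 0.264 and 0.279 in Apc replicates 1, 2, 5 and 6. It was 0.134 to 0.194 in the 5 WT libraries and 0.148 to 0.179 in the 4 P-Rspo3 libraries, so every Apc library lay above every other library. The mean ratio was 0.281 ± 0.0281 (SD, n = 4) in Apc and 0.163 ± 0.0236 (SD, n = 5) in WT. The exact two-sided permutation p was 0.0159, the smallest this design allows, and 0.0429 after Benjamini-Hochberg adjustment over 12 tests. Against P-Rspo3 (0.157 ± 0.0144, SD, n = 4) the exact permutation p was 0.0286, also the smallest possible, and 0.0429 adjusted. P-Rspo3 and WT did not differ beyond their spread in this ratio (exact permutation test, p = 0.730).

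The ratio of Dnmt1 to Dnmt3a was 7.11 ± 0.962 (SD, n = 4) in Apc, 3.27 ± 0.351 (SD, n = 5) in WT and 3.41 ± 0.172 (SD, n = 4) in P-Rspo3. Ezh2 to Ezh1, the pair of alternative catalytic subunits of PRC2, was 2.95 ± 0.232 in Apc, 1.5 ± 0.308 in WT and 1.44 ± 0.187 in P-Rspo3. Apc did not overlap with either group in either ratio, and each exact permutation test gave the smallest p its design allows (0.0159 against WT, 0.0286 against P-Rspo3; both 0.0429 adjusted). P-Rspo3 minus WT gave p = 0.587 for Dnmt1 to Dnmt3a and p = 0.778 for Ezh2 to Ezh1 by the same exact test.

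Tet1 to Tet3 was 0.0205 ± 0.00198 (SD, n = 4) in Apc, 0.00910 ± 0.00204 (SD, n = 5) in WT and 0.00425 ± 0.00286 (SD, n = 4) in P-Rspo3. Apc again lay above both groups with the smallest p possible. In P-Rspo3 the ratio was 0.00338, 0.00222 and 0.00292 in replicates 15d, 4d and F but 0.00848 in replicate M, and WT ran from 0.00636 to 0.0110. The exact permutation p of P-Rspo3 minus WT was 0.0476, and 0.0635 after adjustment, which does not pass. The adjustment of these p-values does not cover the choice of the 4 ratios, which was made after the values of the genes had been seen.

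**Figure D3:**
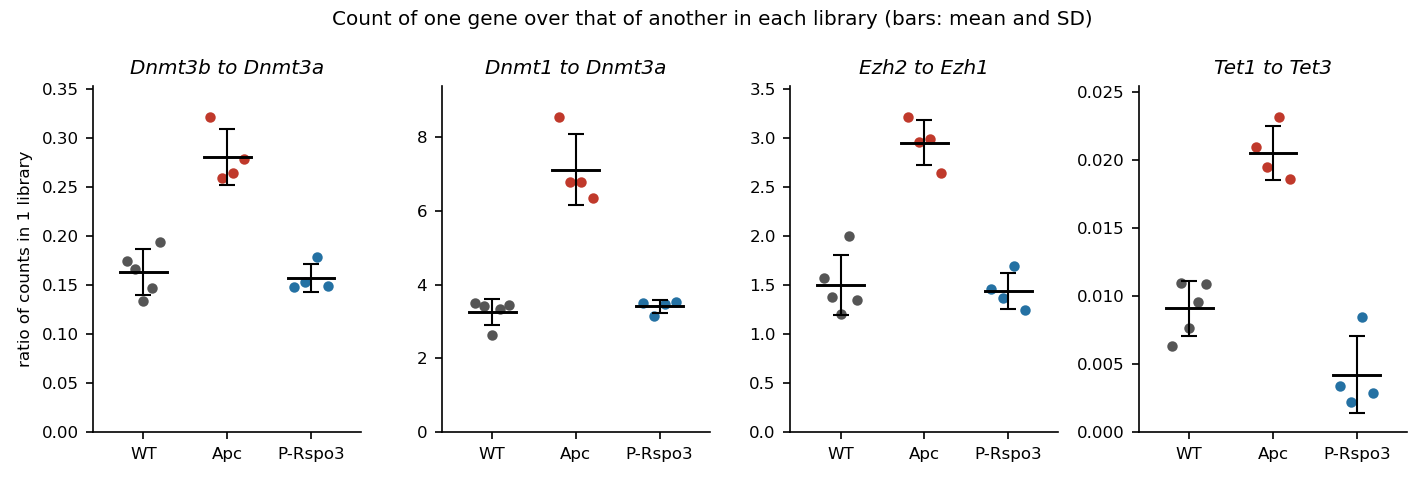
Ratio of the counts of 2 genes within 1 library (y axes, from 0, no unit) for Dnmt3b to Dnmt3a, Dnmt1 to Dnmt3a, Ezh2 to Ezh1 and Tet1 to Tet3, 1 point per library, with lines for the mean and bars for the SD. All 4 Apc libraries lie above all WT and P-Rspo3 libraries in each ratio, for example 0.259 to 0.321 against at most 0.194 for Dnmt3b to Dnmt3a.

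In P-Rspo3 organoids, none of the 9 members tested passed against WT. The log2 fold changes ran from -0.16 for Uhrf1 to 0.11 for Suz12, with a median of 0.04 and SEs of 0.08 to 0.12. The share of all 15992 genes that passed was 0.00625% higher (1 gene) and 0% lower, so a count of 0 members is also what the background gives. At an unadjusted p under 0.05 there were 0 members and 2159 genes, and DESeq2, limma on FPKM and the newer form of the edgeR test also called 0 members, where DESeq2 called 204 genes higher and 304 lower. Without the naive WT library, edgeR called 232 genes higher and 153 lower, and 0 members. Dnmt1 had 240, 212, 204 and 190 CPM in replicates 15d, 4d, M and F, within the WT range of 190 to 265. Ezh2 had 84.1 to 96.1, within the WT range of 79.7 to 99.7. The groups overlapped for each of the 9 genes, and 4.88% of all genes tested had groups that did not.

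Tet1 was not tested in this comparison, because no P-Rspo3 library and only 3 WT libraries reached an FPKM of 0.1. It had 21, 13, 40 and 16 counts in replicates 15d, 4d, M and F, or 0.647, 0.451, 1.31 and 0.586 CPM after TMM scaling. The WT libraries had 1.06 to 2.10, and replicate M alone lay within that range. Without the filter, the log2 fold change was -1.13 ± 0.34 (SE; edgeR adjusted p = 0.212), which does not pass. Without replicate M it was -1.55, with an edgeR adjusted p of 0.0793.

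Between the 2 mutant groups, both in EN medium, 6 members were higher in Apc than in P-Rspo3 and 2 were lower. Of these 6, Tet1 entered the test only through Apc. Of 16456 genes tested, 28.7% were higher and 27.7% lower, and 26.7% also passed the fold threshold, as 1 member did with TMM and 3 with total counts (27.5% of all genes), where Dnmt1 and Uhrf1 were at 1.04 and 1.03. With total counts 7 members were higher and 0 lower, beside 41.9% and 19.3% of all genes. Dnmt1 was higher by 0.78 ± 0.09 on the log2 scale (SE; edgeR adjusted p = 8.42e-05) and Uhrf1 by 0.78 ± 0.10 (SE; edgeR adjusted p = 0.000130). Dnmt3b was higher by 0.56 ± 0.11, Ezh2 by 0.48 ± 0.06 and Suz12 by 0.26 ± 0.08 (SE). In each of these genes the lowest Apc library lay above the highest P-Rspo3 library. Over all genes tested, 53.9% had groups that did not overlap.

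Tet1 was the member past the fold threshold, at 2.01 ± 0.32 (SE; edgeR adjusted p = 0.000567). It passed the filter on low genes only through the Apc group, with 0 of 4 P-Rspo3 libraries at the FPKM minimum. Dnmt3a was at -0.27 ± 0.09 (SE; edgeR adjusted p = 0.0296) and Tet3 at -0.34 ± 0.09 (SE; edgeR adjusted p = 0.00826) with TMM, but neither passed with total counts (-0.02 and -0.09) or FPKM. The lowest P-Rspo3 library for Dnmt3a, replicate F with 54.1 CPM, fell inside the Apc range of 47.1 to 55.5. The call on Dnmt3a was lost without Apc replicate 1 (edgeR adjusted p = 0.0812), Apc replicate 6 (0.0708), P-Rspo3 replicate 15d (0.0781) or P-Rspo3 replicate 4d (0.0812). Suz12 did not pass without Apc replicate 2 (edgeR adjusted p = 0.0576). Eed was at 0.15 (edgeR adjusted p = 0.126) and Tet2 at 0.07 (edgeR adjusted p = 0.763), which do not pass, though Eed passed without P-Rspo3 replicate M (0.0311) and with total counts (0.00133). The 3 comparisons share groups, so their values are set side by side and are not independent of one another.

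**Figure D4:**
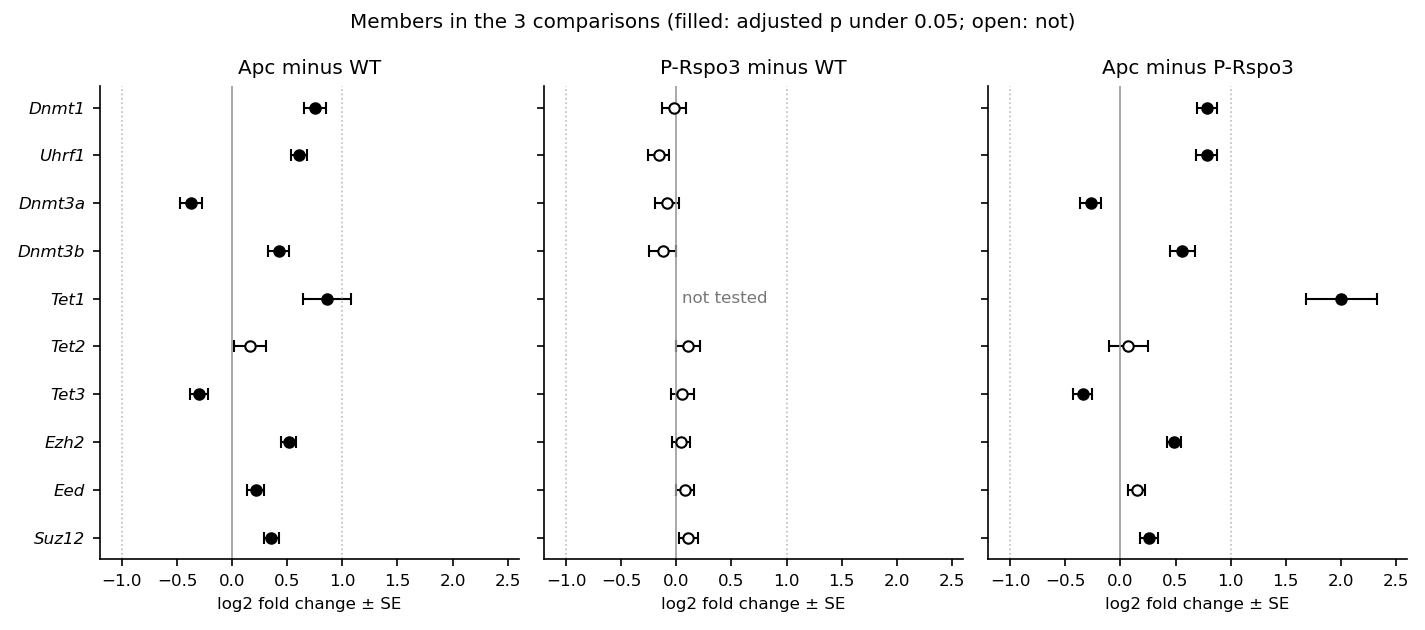
log2 fold change with SE (x axes) of the 10 genes in Apc minus WT, P-Rspo3 minus WT and Apc minus P-Rspo3, filled where the edgeR adjusted p is under 0.05, with dotted lines at the fold threshold of 1. The filled points of Apc minus WT run from -0.37 to 0.86. None is filled in P-Rspo3 minus WT, where 1 of all 15992 genes passed. The calls on Dnmt3a and Tet3 hold with TMM but not with total count or FPKM scaling.

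By level per transcript length, Suz12 was the most expressed member in each group and Tet1 the least. In WT the mean FPKM was 41.4 for Suz12, 31.8 for Uhrf1, 29.2 for Ezh2, 23.9 for Dnmt1 and 21.8 for Eed. The ranges of neighbours in this run overlapped, although Suz12 exceeded Uhrf1 in 5 of 5 libraries. Below them came Tet3 with 13.1 and Dnmt3a with 6.77, each with a range of its own, then Tet2 with 2.08 and Dnmt3b with 1.97, whose ranges overlapped, and Tet1 with 0.122. In Apc the order was the same but for Dnmt3b (3.28) and Tet2 (2.82), which changed places with overlapping ranges. There, Suz12 (67.0), Uhrf1 (58.8) and Ezh2 (51.8) no longer overlapped with each other, while Ezh2 and Dnmt1 (48.6) did. In P-Rspo3 the means followed the WT order, with 47.2 for Suz12 and 0.0693 for Tet1. Uhrf1 (30.6) and Ezh2 (30.5) overlapped there, and Uhrf1 exceeded Ezh2 in only 1 library.

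The spread between libraries of a group differed among members. On the TMM scale, Ezh2 had an SD of 2.95% of its mean in Apc, Tet3 3.38% and Dnmt3b 3.62%. Tet1 varied most in WT (26.2%) and P-Rspo3 (51.3%), where it had 13 to 71 counts, and Tet2 varied most in Apc (24.8%). WT replicate 6 was the highest WT library for 9 of the 10 members, all but Tet2.

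The partners of these enzymes were read from 5 lists of 66 genes in all. Of 64 tested in Apc minus WT, 33 were higher and 9 lower with TMM, with a median log2 fold change of 0.22, and with total counts 45 were higher and 5 lower. Over all genes tested the shares were 30.0% higher and 29.0% lower with TMM, and 45.1% and 19.7% with total counts, and the counts of the single lists stand beside these. Of 63 tested in P-Rspo3 minus WT, 0 passed in either direction. Among all 15992 genes of that comparison 1 passed as higher (0.00625%) and 0 as lower, so this count is what the background gives.

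Among 13 partners of DNA methylation tested, 9 were higher in Apc and 1 was lower. Cdca7, a partner of the remodeller Hells in keeping methylation through replication, rose by 0.79 ± 0.09 (SE; edgeR adjusted p = 2.39e-05), with 254, 281, 284 and 263 CPM in Apc and 139 to 188 in WT. Hells itself rose by 0.79 and Uhrf2, the paralog of Uhrf1, by 0.77. These last 2 and, in the paragraphs that follow, Zbtb38, Gadd45b, Gadd45g, Tdg, Phf19, Ezh1 and Phf1 were chosen after their values were seen. Mbd4, a glycosylase that repairs mismatches at methylated CpG, rose by 1.05 and Trdmt1, a methyltransferase of transfer RNA, by 1.19. Zbtb38, which binds methylated DNA, was at -0.81 with TMM and -0.52 with total counts, and at 0.12 on log2(FPKM + 0.1), where it did not pass.

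Among 12 genes of demethylation, 3 were higher in Apc and 4 lower, shares near those of all genes, and the list's median was -0.05 with TMM and 0.24 with total counts. Idh1, which makes 2-oxoglutarate, a substrate of the TET enzymes, was at -1.26 ± 0.14 (SE; edgeR adjusted p = 1.71e-05), with 272 to 301 CPM in Apc and 527 to 866 in WT. The stress genes of the Gadd45 family, which are linked to demethylation, went both ways, with Gadd45a at -1.31, Gadd45b at 0.71 and Gadd45g at 0.86, all passing. Both Idh1 and Gadd45a stayed lower and passed with total counts and with FPKM. Tdg, the glycosylase that excises oxidized methylcytosine, rose by 0.41.

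Among 10 PRC2 partners, 5 were higher in Apc and 2 lower. Epop, which links PRC2 to elongin, rose by 2.02 ± 0.29 (SE; edgeR adjusted p = 0.000147). It had 46.0, 40.02, 40.08 and 35.2 CPM in Apc replicates 1, 2, 5 and 6. WT had 4.21 (the naive library) to 14.4, and P-Rspo3 2.13 to 4.99. Phf19, which guides PRC2 to chromatin, rose by 0.97, and the histone-binding subunit Rbbp4 by 0.57 ± 0.08 (SE; edgeR adjusted p = 7.97e-05). Ezh1, the alternative to Ezh2, was at -0.49 with TMM (40.9 to 46.4 CPM in Apc, 49.9 to 66.4 in WT), but at -0.19 with total counts, where it did not pass. Phf1 was at -0.86 with TMM and -0.56 with total counts, lower on both.

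Of 24 PRC1 genes, 14 were higher in Apc and 2 lower with TMM, and 17 higher and 0 lower with total counts. Phc1, a polyhomeotic subunit, rose by 1.25 ± 0.11 (SE; edgeR adjusted p = 4.39e-06), and Scmh1 by 1.12. Cbx6, a reader of the PRC2 mark, rose by 1.49, with 104 to 145 CPM in Apc. WT had 21.4 (the naive library) to 59.1, and P-Rspo3 14.9 to 21.8. Scml2, a gene best known from the testis, had 55, 119, 76 and 144 counts in Apc and 0 to 5 in WT. It entered the test through Apc alone, and was at least 30.4-fold higher in Apc than in P-Rspo3. This bound used library totals, without TMM scaling, and a floor of 3 counts per library. Of the 5 genes tested for removal of H3K27 methylation or of ubiquitin from H2A, 2 were higher, with Asxl1, a cofactor of the deubiquitinase Bap1, at 0.51.

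**Figure D5:**
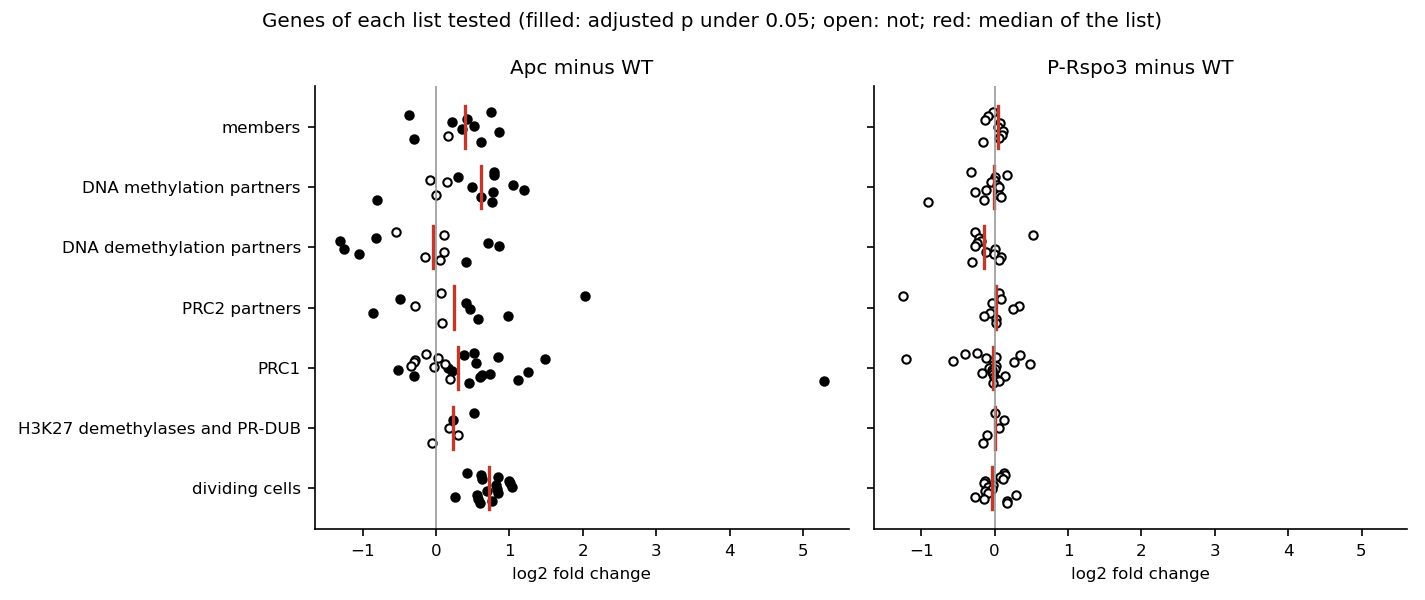
log2 fold change with TMM (x axes) of each tested gene of 7 lists in Apc minus WT (left) and P-Rspo3 minus WT (right), filled where the edgeR adjusted p is under 0.05, with a red line at the median of the list. In Apc the medians run from -0.05 for DNA demethylation partners, which is 0.24 with total counts, to 0.73 for dividing cells. In P-Rspo3 no point is filled, where 1 of all 15992 genes passed.

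The Cdkn2 locus, a classical target of Polycomb silencing, had more counts of one gene and fewer of its neighbour in Apc. Cdkn2a, which encodes inhibitors of cell cycle entry, had 485, 345, 373 and 603 counts in Apc replicates 1, 2, 5 and 6 and 0 to 9 in WT. It reached the FPKM minimum in 4 Apc and 2 WT libraries, so it entered the test through the group where it was high, and no fold is given. Cdkn2b, an inhibitor of the same family, had 245 to 412 counts in Apc and 921 to 1692 in WT, with a log2 fold change of -2.68 ± 0.24 (SE; edgeR adjusted p = 3.82e-06). Cdkn2b kept direction and call with total counts and FPKM. In P-Rspo3 minus WT neither gene passed (edgeR adjusted p = 0.466 for Cdkn2a and 0.818 for Cdkn2b).

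Genes of the germline are a known group silenced by DNA methylation in body tissues. Of 15 such genes, 0 could be tested in Apc minus WT, since too few libraries reached the FPKM minimum, and 14 had at most 3 counts in every Apc library. Sycp1, of the meiotic synaptonemal complex, had 114, 106, 69 and 79 counts in P-Rspo3 replicates 15d, 4d, M and F, 29 in the naive WT library and 0 in the other 4 WT and all 4 Apc libraries. It reached the FPKM minimum in 4 P-Rspo3, 1 WT and 0 Apc libraries. Sycp1 thus entered both comparisons only through P-Rspo3, the group where it was high, and its values there are a description. In P-Rspo3 minus WT its log2 fold change was 3.91 (edgeR adjusted p = 0.160), which does not pass. Against Apc it was at least 33.2-fold higher in P-Rspo3, computed on library totals, without TMM scaling, against a floor of 3 counts per library.

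The pattern of Tet1 over the 13 libraries was most like that of Fzd8, Marveld1 and Zfp667 among 17393 genes. Likeness was the mean absolute difference of log2 CPM after subtracting each gene's own mean, and it was 0.26, 0.27 and 0.29. Tet1 was taken because it had the largest fold change of the members in Apc minus WT. Fzd8, a receptor for Wnt ligands, had 3.38 to 3.80 CPM in Apc, 1.15 to 1.83 in WT and 0.486 to 1.06 in P-Rspo3, and Marveld1 had 10.9 to 13.2, 3.52 to 7.60 and 1.14 to 3.28. As the pattern chose these genes on the same libraries, their differences between groups are a description, with no test.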

How the data were processed

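RNA sequencing of polyadenylated RNA from mouse organoids was used (15 libraries). The submitters' processing notes name FastQC, STAR, Cufflinks 2.2.1, HTSeq 0.6.0 and the mouse genome GRCm38. The annotation release and the strand setting are not given in the sources used here. The deposited count table holds raw HTSeq read counts per gene, and the authors also deposited FPKM values from Cufflinks, which are per transcript length and per library total and allow levels to be compared between genes. Gene symbols and positions came from GENCODE M21, in which 42462 of 43629 genes matched. Genes that overlap a member and were counted had at most 36 counts. Other overlapping genes have no count, among them Gm48353 on the strand of Tet1.

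The study's minimum FPKM of 0.1 was kept as the filter, to be reached in 4 libraries of a comparison (the smaller group's size). Each comparison was fitted by itself with edgeR 4.0.16 (TMM scaling, quasi-likelihood test in its earlier form, no covariate) in R 4.3.3, with Benjamini-Hochberg adjustment over all genes tested. The fit was tested on simulated data. CPM shown in the text used 1 TMM scaling over all 15 libraries. DESeq2 1.42.0, limma 3.58.1 on log2(FPKM + 1) or log2(FPKM + 0.1), other filters and scalings, and libraries left out in turn were alternatives. Ratios of counts were compared by exact permutation (scipy 1.17.1).

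The members and all gene lists were chosen with earlier results of these data known. Genes named beside members and label checks passed both thresholds (adjusted p under 0.05, absolute log2 fold change above 1) in a comparison with WT, or had the smallest p of their list in Apc minus WT. For the pattern of Tet1 the 3 nearest genes were named. Others are stated as chosen later. A gene that this rule names is not reported here. Apc and WT libraries with the same number share a line by their titles, so the line was a block in 1 alternative. The correlation of their deviations had a median of 0.090 over 4 pairs, and -0.029 over 12 other pairs. Libraries of a group differed by more than counting noise in all 22 pairs, with a chi-square per gene of at least 20.5. With about the same depth in each library, counting error weighs most on Tet1.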

Additional observations from a re-analysis of the deposited data

Results flagged for a closer look

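Among 30 groups of 4 or 5 libraries (10 genes in 3 groups), 3 held a library whose gap to the nearest other exceeded Dixon's 95% critical value. Chance flags about 1 in 20 groups. All values are CPM after TMM scaling. Dnmt3b had 8.06 in P-Rspo3 replicate F, below 10.2 to 10.5 in the other 3 libraries. Tet2 had 39.98 in Apc replicate 6, above 24.3 to 26.8 in the other 3. Tet3 had 219 in WT replicate 6, above 166 to 176 in the other 4. Without these libraries, the log2 fold change of Dnmt3b in P-Rspo3 minus WT was -0.04, that of Tet2 in Apc minus WT was -0.03 (edgeR adjusted p = 0.844), and that of Tet3 in Apc minus WT was -0.24 (edgeR adjusted p = 0.00237).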

How the results depend on the processing

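The count of lower members was 0 in Apc minus WT and 0 in Apc minus P-Rspo3 under total count scaling, limma on log2(FPKM + 1) and limma on log2(FPKM + 0.1), against 2 in each with TMM. Tet3 in Apc minus WT then turned to 0.014 and 0.016 on the log2 scale in the latter 2 settings. Total count scaling and the alternatives for count ratios were chosen after seeing the data. With 1 library left out, 8 to 9 members passed in Apc minus WT (6 to 7 higher, 2 lower), 0 in P-Rspo3 minus WT and 7 to 9 in Apc minus P-Rspo3 (5 to 7 higher, 1 to 2 lower). Of 16485 to 17213 genes in Apc minus WT, these fits called 4697 to 5004 higher and 4569 to 4902 lower. Over all genes they called 1 to 232 higher and 0 to 153 lower in P-Rspo3 minus WT. In Apc minus P-Rspo3 these calls were 4297 to 4762 and 4227 to 4523. The count of lower members in Apc minus P-Rspo3 was 1 without Apc replicate 1, Apc replicate 6, P-Rspo3 replicate 15d or P-Rspo3 replicate 4d. With the line as a replicate block, 8 members passed in Apc minus WT (6 higher, 2 lower), Eed being the member whose call changed, while all genes gave 4490 higher and 4369 lower calls. The P-Rspo3 libraries share no line number with the other groups. Of all genes in P-Rspo3 minus WT, 1 was called higher and 0 lower with edgeR, 204 and 304 with DESeq2, 48 and 87 in 1 fit of all 3 groups, and 232 and 153 without the naive WT library. Leaving out 1 library in a ratio of Apc to P-Rspo3 leaves 4 against 3, where the smallest exact permutation p is 0.0571. At 13 to 71 counts in WT and P-Rspo3, depth limits Tet1 most.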

Other observations

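Title and genotype field disagree for 2 libraries, so their values stand alone and enter no group. The library titled LIPO, with a Dox naive genotype, had 178 CPM of Dnmt1, 119 of Uhrf1, 91.9 of Ezh2 and 172 of Suz12 after TMM scaling. The library titled NAIVE_F, with a P-Rspo3 genotype, had 199, 114, 95.8 and 207 of the same genes. The ratio of Dnmt3b to Dnmt3a counts was 0.179 and 0.172 in them, and that of Tet1 to Tet3 was 0.00441 and 0.00430. Tet1 had 22 and 18 counts, and Sycp1 had 0 in both. Rspo3 had 0 counts in LIPO and 729 in NAIVE_F, where the P-Rspo3 group had 539 to 1079 and WT 0 to 1. By Rspo3, each of these libraries thus sits with the group of its genotype field.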
